A study of Mus musculus with 8 samples.

Results

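Galectins, annexins and S100 proteins were described here through 10 genes, Lgals1, Lgals3, Anxa1, Anxa2, Anxa3, Anxa5, S100a4, S100a6, S100a10 and S100a11, which were matched by symbol among the 18257 genes of the deposited table. The genes were chosen by the difference between A485 and control seen earlier in these data, in which Lgals3 had a 42.1-fold higher mean. The difference between A485 and control is therefore given for them as a description, with no p-value. RNA came from wild-type mouse morulae, and each library pooled 3 embryos freed of the zona pellucida. In 4 control libraries the embryos had been cultured in KSOM, an embryo medium, with 0.1% DMSO, and in 4 treated libraries with 2 µM A485, a compound that blocks the histone acetyltransferases p300 and CBP. Culture ran from the 4-cell stage under a protocol that extends to the blastocyst, while the samples are labelled as morulae, and the hour of collection is not given in the labels. They do not state whether each pool had its own litter or day of culture, so p-values measure only the spread between these libraries, which may be partly technical.

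Galectins are lectins that bind beta-galactoside sugars on glycoproteins, and they act both outside the cell and on damaged endosomes or lysosomes inside it. Annexins bind negatively charged membrane phospholipids when calcium rises, and take part in membrane trafficking, membrane repair and links to the actin cytoskeleton. S100 proteins are small EF-hand proteins that work mostly as dimers and bind partner proteins, among them annexins. Galectin 3 and several of these annexins and S100 proteins are well known from epithelia.

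Levels are given as CPM, counts scaled to a common library size with TMM, edgeR's factor for composition. Totals per library lay between 23641779 and 25677692, so 1 count was worth 0.0340 to 0.0464 CPM. Without a spike-in, a change is measured against the remaining genes, whose median log2 fold change was 0.09. All 12 morula markers checked were detected, with a summed level of 5616 to 6334 CPM in controls and 4294 to 6302 CPM in A485. In edgeR's fit 9 of them fell and 2, the keratin genes Krt8 and Krt18, rose, beside 25.0% and 29.7% of all tested genes. The largest part of the sum was Dppa5a, which fell from a mean of 3158 to 1925 CPM. Krt8 rose from 373 to 1217 CPM and Krt18 from 508 to 1106 CPM. Of the fibroblast markers Col1a1, Col1a2, Col3a1, Dcn, Lum, Pdgfrb and Thy1 stayed under 1 CPM in every library of both groups, and all 10 markers summed to 3.54 to 6.61 CPM in controls and 5.66 to 14.1 CPM in A485. Vim, in the same list, rose from a mean of 1.82 to 7.56 CPM (log2 fold change 2.05, edgeR adjusted p = 0.0023, and 1.31 without A485 replicates 3 and 4), and Postn fell from 1.19 to 0.231 CPM (edgeR adjusted p = 0.0048). Of the 8 leukocyte markers in the table Ptprc, Lyz2, Tyrobp, Fcer1g and Cd14 stayed under 1 CPM in both groups. Their sum went from 24.4 to 43.3 CPM in controls to 68.5 to 173 CPM in A485, in which Cd68 had means of 30.9 and 90.7 CPM and Csf1r of 0.0860 and 15.1 CPM, both called higher. Whether RNA of other cells had a part in the results below was not tested. The 13 cumulus and granulosa markers summed to 69.1 to 101 CPM in controls and 66.9 to 88.2 CPM in A485. Among them Foxl2, Fshr, Inhba, Amh, Cyp19a1, Has2 and Ptx3 were under 1 CPM in all libraries. Of the 5 tested markers 3 rose and 1 fell, beside 29.7% and 25.0% of all tested genes. The fifth, Amhr2, had 24.1 to 40.6 CPM in controls and 21.0 to 46.4 CPM in A485 and was not called (log2 fold change 0.24). Cyp11a1 averaged 0.0464 CPM in controls, where all its counts lay in replicate 4, and 15.2 CPM in A485. Inha had 0 counts in the control group and 155 in A485, at least 43.2-fold higher with a floor of 3 counts over the group. Cyp11a1 and Inha passed the filter on low counts through A485 alone, so only a rise could be seen for them. Nothing is therefore read from the 3 of 5. Star went from 0.377 to 1.22 CPM (edgeR adjusted p = 0.021), and missed the threshold when any of control replicates 1 to 3, A485 replicate 3 or both A485 replicates 3 and 4 were left out (1.30 to 1.69 on the log2 scale, against 1.69 with all libraries) and with the replicate block (1.64). Nr5a2, which morulae also express, went from 52.8 to 26.3 CPM (edgeR adjusted p = 0.022), a log2 fold change of -1.01 that missed the threshold on leaving out control replicate 1, control replicate 2 or A485 replicate 4 (-0.96 to -0.93) and was -1.66 without A485 replicates 1 and 2. Differentiated trophoblast markers, 5 of 10 in the table, summed to 55.2 to 81.3 CPM in controls and 100 to 152 CPM in A485, with members moving opposite ways. Hand1 rose from 40.2 to 109.6 CPM and Ascl2 from 0.303 to 11.8 CPM, while Prl3b1 fell from 28.1 to 0.641 CPM (edgeR adjusted p of 0.00017, 0.00017 and 0.00049). The log2 fold change of Ascl2 was 5.27, and 6.03 without control replicate 4. The 10 oocyte markers summed to 12.5 to 18.2 CPM in controls and 13.4 to 22.6 CPM in A485, mostly from Zp3 (means of 9.67 and 11.8 CPM). Of 7 tested 1 was called higher and 0 lower, beside 29.7% and 25.0% of all tested genes. The 1 was Figla, from 0.302 to 0.960 CPM (edgeR adjusted p = 0.040), lost for instance with limma-voom or the replicate block. Npm2 was not called, though every A485 library lay below every control (means of 2.22 and 1.38 CPM). The 6 sperm markers in the table summed to at most 1.80 CPM. In these pools of whole embryos, fewer cells of a type and less RNA per cell cannot be told apart.

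Of the 10 genes 7 were higher in A485 in the fit across all genes (Lgals1, Lgals3, Anxa2, Anxa5, S100a6, S100a10 and S100a11), with an adjusted p under 0.05 in edgeR's quasi-likelihood test. Over all 12936 genes tested, 29.7% were called higher and 25.0% lower, together 54.7%. None of the 10 was called lower. Anxa1 and Anxa3 were tested and not called, and S100a4 did not pass the filter on low counts. In the same 7 genes every A485 library lay above every control library, which held for 26.9% of all genes tested. The median log2 fold change of the 9 tested members was 2.60. As the genes were chosen with this comparison in view, nothing is read from these counts.

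**Figure D1:**
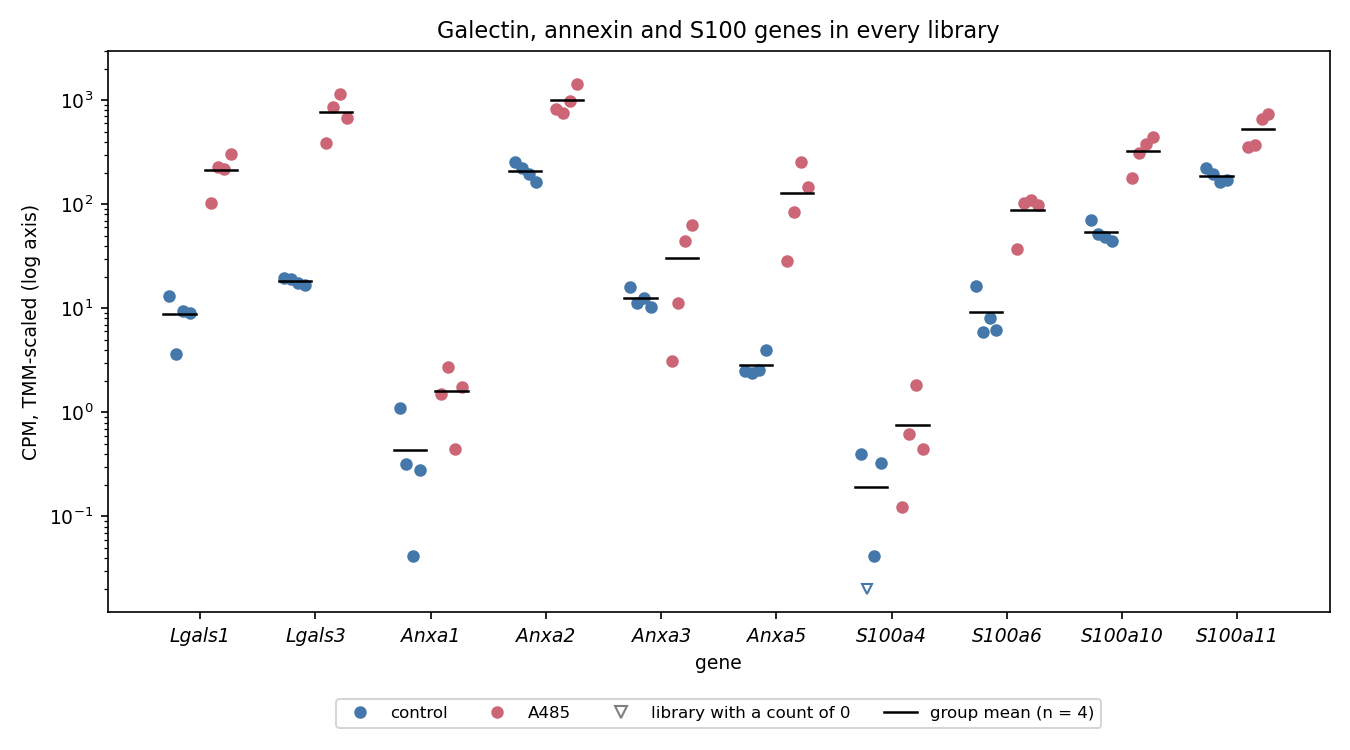
Level of each of the 10 genes in every library, in TMM-scaled CPM on a log axis, with control libraries in blue, A485 libraries in red the mean of the 4 libraries as a bar, and an open triangle for a library with a count of 0. The A485 points lie wholly above the control points for 7 genes, those of Anxa3 spread from below to above the controls, and Anxa1 and S100a4 stay near the bottom of the scale.

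Both galectins went from a low level to a high one. Lgals3 (NCBI gene 16854, chromosome 14, 47373860 to 47386167, GRCm38.p6) encodes galectin 3, the galectin with a collagen-like tail that can form oligomers. Its level was 19.7, 19.2, 17.6 and 16.7 CPM in control replicates 1 to 4 and 388, 857, 1162 and 671 CPM in A485 replicates 1 to 4. The controls lay within 1.18-fold of each other, whereas the highest A485 library was 2.99-fold above the lowest. The means were 18.3 ± 1.43 and 769.5 ± 325 CPM (n = 4 per group, SD), a ratio of 42.1. Lgals1 (NCBI gene 16852, chromosome 15, 78926725 to 78930465) encodes galectin 1, a small lectin that works as a dimer. It had 13.3, 3.61, 9.54 and 9.09 CPM in controls and 103, 228, 217 and 303 CPM in A485. The groups were far apart although control replicate 2 stood 3.67-fold below control replicate 1. The log2 fold change was 4.58 ± 0.45 for Lgals1 and 5.39 ± 0.33 for Lgals3 (SE). Per length, in the authors' TPM values, Lgals3 and Lgals1 had overlapping ranges in controls, with means of 14.2 ± 0.972 and 13.8 ± 6.15 (SD, n = 4), and Lgals3 was the higher of the pair in 1 of 4 control libraries. In A485 Lgals3 was higher in all 4 libraries, with 775 ± 397 against 417 ± 170 TPM (SD, n = 4).

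The annexins did not move as a block. Anxa2 (NCBI gene 12306, chromosome 9, 69453683 to 69491792) encodes annexin A2, which binds S100A10 and actin at the plasma membrane. It had 257, 221, 197 and 165 CPM in controls and 822, 764, 978 and 1439 CPM in A485, so that the groups were well apart and the log2 fold change was 2.25 ± 0.23 (SE). Anxa5 (NCBI gene 11747, chromosome 3, 36448923 to 36475887) encodes annexin A5, the phosphatidylserine-binding protein used as a probe of dying cells. It had 2.51, 2.39, 2.58 and 3.99 CPM in controls and 28.4, 85.3, 257 and 147 CPM in A485. Its ratio of means, 45.2, was the largest of the 10 genes, and its A485 libraries spread 9.04-fold. Its log2 fold change was 5.50 ± 0.66 (SE), 4.31 without A485 replicates 3 and 4, and 6.12 without A485 replicates 1 and 2.

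Anxa3 (NCBI gene 11745, chromosome 5, 96793385 to 96845968), encoding annexin A3, had the widest spread among A485 libraries of the 10 genes. It had 16.03, 11.2, 12.7 and 10.2 CPM in controls. In A485 it had 3.12, 11.3, 44.8 and 63.9 CPM. Replicate 1 thus lay below every control, replicate 2 within the controls and replicates 3 and 4 above them, a 20.5-fold spread that rests on 76 to 1728 counts. The log2 fold change was 1.296 ± 0.75 (SE) and was not called. Without A485 replicate 1 it was 1.66 and called, without A485 replicate 4 it was 0.66, without A485 replicates 1 and 2 it was 2.10 and called, and without A485 replicates 3 and 4 it was -0.79. The fitted value was 0.56 with limma-voom and 0.66 with the replicate number as a block. Another annotated gene overlaps Anxa3 on the same strand over 2146 bases, so reads could be split. Anxa1 (NCBI gene 16952, chromosome 19, 20373434 to 20390673), encoding annexin A1, a mediator of glucocorticoid action, was close to absent. It had 1.10, 0.316, 0.0417 and 0.278 CPM in controls, 39 counts in all, and 1.52, 2.74, 0.442 and 1.77 CPM in A485, 173 counts in all. The groups overlapped, and the log2 fold change of 1.89 ± 0.79 (SE) was not called. It was 2.90 and called without control replicate 1, 2.203 and called without A485 replicate 3, and 2.28 and called without A485 replicates 3 and 4. With all libraries Anxa1 was called by DESeq2 (1.87), under total-count scaling (2.17) and with the replicate block (2.21). A long noncoding RNA lies over the whole of Anxa1 on the opposite strand, and no source here states the strandedness, so reads of both cannot be told apart. The same holds for Anxa2 over the 2570 bases where an antisense gene lies opposite.

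S100a10 and S100a11 were already abundant in control embryos and S100a6 was not. S100a10 (NCBI gene 20194, chromosome 3, 93554940 to 93564645) encodes the annexin A2 partner p11, an S100 protein that no longer binds calcium. It had 70.3, 52.2, 48.8 and 44.7 CPM in controls and 179, 312, 382 and 442 CPM in A485. S100a11 (NCBI gene 20195, chromosome 3, 93520235 to 93526288) encodes an S100 protein that binds annexin A1. It had 225, 194, 163 and 170 CPM in controls and 359, 374, 656 and 737 CPM in A485, with replicates 3 and 4 above replicates 1 and 2. S100a6 (NCBI gene 20200, chromosome 3, 90612894 to 90614414) encodes calcyclin, which binds the protein encoded by Cacybp. It had 16.3, 5.87, 8.08 and 6.26 CPM in controls and 37.3, 103, 111 and 99.1 CPM in A485. In each of the 3 genes the groups were separate. The log2 fold changes were 2.60 ± 0.27 for S100a10, 1.498 ± 0.25 for S100a11 and 3.26 ± 0.43 for S100a6 (SE). S100a11 has 5 processed pseudogenes whose transcripts match it at 90.6% to 99.0% identity over 227 to 303 bases in the GENCODE M21 set, so its count is uncertain.

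S100a4 (NCBI gene 20198, chromosome 3, 90603770 to 90606045), known as a marker of fibroblasts and of cells that have undergone an epithelial to mesenchymal transition, stayed near absence. It had 0.396, 0, 0.0417 and 0.325 CPM in controls, 17 counts in all, and 0.123, 0.622, 1.84 and 0.443 CPM in A485, 86 counts in all. Its groups overlapped, and where a setting let it be tested it was not called. An annotated gene that overlaps it on the same strand shares 302 bases at 100% identity, so counts could be split between them. S100a4 lies 6.85 kb from S100a6 on chromosome 3.

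Within each group, certain libraries were high or low for most of these genes. Control replicate 1 had the highest level of 9 of the 10 genes, all but Anxa5, where it ranked below replicates 3 and 4. Over all genes tested, control replicate 1 was the highest control in 25.0% of cases, and among genes called higher in A485 in 30.3%. Among the 7 called members A485 replicate 1 was the lowest A485 library for 6, all but Anxa2, while A485 replicate 4 was the highest for 4 and replicate 3 for 3. Of the 3839 genes called higher 57.1% had their lowest A485 value in replicate 1, 47.7% their highest in replicate 3 and 33.0% their highest in replicate 4. The A485 libraries were also less alike as whole transcriptomes, since the chi-square per degree of freedom between libraries was 61.7 to 69.0 within replicates 1 and 2 or 3 and 4 and 124 to 215 across them, against 20.2 to 35.9 between controls. Both of A485 replicates 3 and 4 exceeded both of replicates 1 and 2 for 5 of the 9 tested members (Anxa2, Anxa3, Anxa5, S100a10 and S100a11), and for 27.9% of all tested genes. The labels name no batch, and what sets these libraries apart was not tested.

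**Figure D2:**
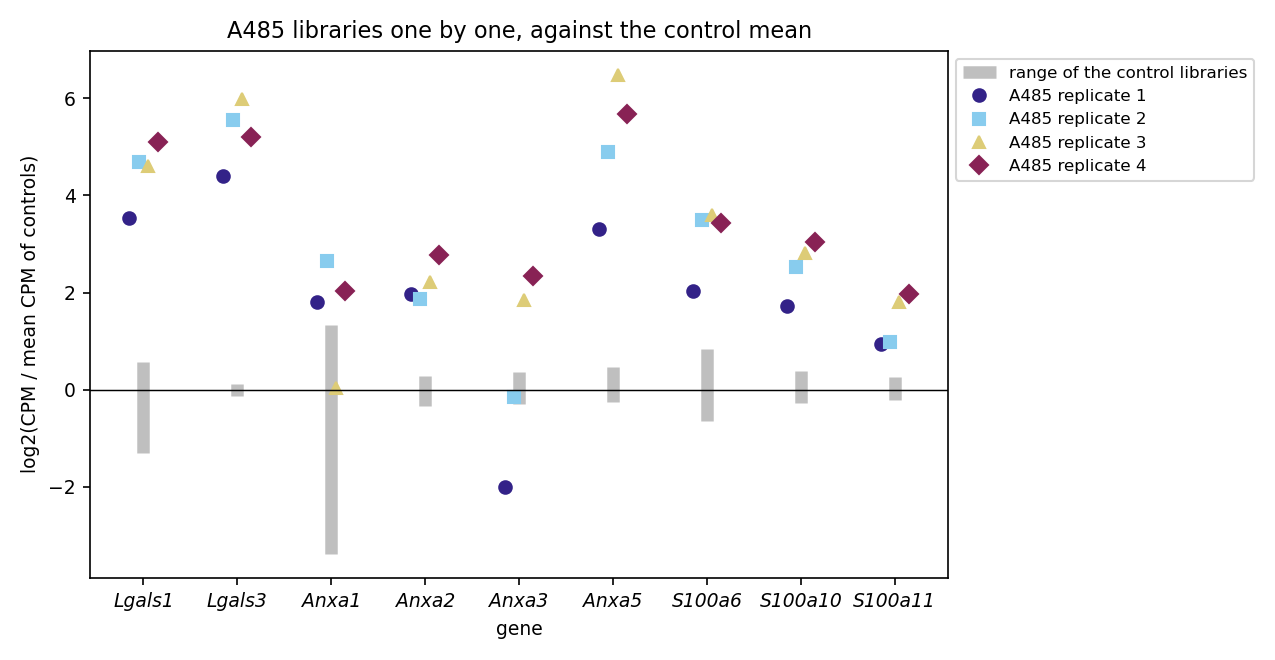
Log2 of each A485 library's CPM over the mean CPM of the 4 controls, for the 9 tested genes, with 1 symbol per A485 replicate and the range of the control libraries as a grey bar. Replicate 1 is the lowest symbol for most genes, and the 4 symbols of Anxa3 run from below to above the control bar.

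Since TPM takes gene length into account, it allows the genes to be compared with each other. In controls S100a11 was the most abundant with 538 ± 70.8 TPM (SD, n = 4), followed by Anxa2 with 166 ± 28.7 and S100a10 with 110 ± 21.9 TPM. S100a6, Lgals3 and Lgals1 came next at 16.3, 14.2 and 13.8 TPM with overlapping ranges, and neighbours in that order did not differ beyond their spread. Anxa3 averaged 8.36 TPM, Anxa5 1.75 TPM, and S100a4 and Anxa1 were under 1 TPM. In A485 S100a11 led with 1936 ± 787 TPM, followed by Anxa2 at 987 ± 298, S100a10 at 857 ± 330 and Lgals3 at 775 ± 397 TPM (SD, n = 4), where the ranges of neighbours overlapped. Lgals3 was exceeded by 3682 genes of the table in mean TPM in controls and by 240 in A485, and S100a11 by 325 and 94. Anxa2 and S100a10, whose products form a complex of a pair of each, had a TPM ratio of 1.41, 1.66, 1.56 and 1.44 in controls and of 1.78, 0.948, 0.983 and 1.25 in A485. In A485, 3 of 4 libraries lay below every control and replicate 1 above. Anxa1 was far below S100a11, the S100 partner it binds, with an Anxa1 to S100a11 TPM ratio of at most 0.00199 in any library. S100a6 and Anxa11, another pair known to bind, went opposite ways. Anxa11 had 5.31 ± 0.673 TPM in controls and 1.70 ± 0.943 in A485 (SD, n = 4), and its ratio to S100a6 went from 0.394 ± 0.173 to 0.00927 ± 0.00395.

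The sequence just before the gene start is shown for 5 members as RefSeq gives it in GRCm38.p6, since these genes cover the largest ratios (Lgals3 and Anxa5), the highest levels (Anxa2 and S100a11) and a gene close to absence (Anxa1). Each run is 250 bases, written 5′ to 3′ along the gene's strand and ending at the base before the start that RefSeq's window uses. That start is the same as in the coordinates given above for Lgals3, Anxa5 and Anxa2, 2 bases inside the gene for Anxa1 and 261 bases inside it for S100a11, so that by those coordinates the S100a11 window lies within the gene. Lgals3 is chr14:47373610-47373859 on the plus strand, Anxa5 chr3:36475888-36476137 on the minus strand, Anxa2 chr9:69453433-69453682 on the plus strand, S100a11 chr3:93520246-93520495 on the plus strand and Anxa1 chr19:20390672-20390921 on the minus strand. Capitals mark TGAGTCA (the AP-1 motif), GGGCGG (the GC box) and TATAAA (the TATA box), each searched on both strands.
Lgals3: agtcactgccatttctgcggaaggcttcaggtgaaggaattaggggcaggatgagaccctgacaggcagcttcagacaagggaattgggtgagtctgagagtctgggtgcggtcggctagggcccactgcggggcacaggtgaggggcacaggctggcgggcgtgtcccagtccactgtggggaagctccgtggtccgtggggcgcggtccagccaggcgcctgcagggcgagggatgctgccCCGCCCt
Anxa5: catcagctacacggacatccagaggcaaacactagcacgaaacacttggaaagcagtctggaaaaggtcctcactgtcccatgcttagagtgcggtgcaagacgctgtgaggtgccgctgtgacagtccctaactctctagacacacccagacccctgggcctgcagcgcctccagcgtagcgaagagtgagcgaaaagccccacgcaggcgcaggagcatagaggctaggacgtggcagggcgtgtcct
Anxa2: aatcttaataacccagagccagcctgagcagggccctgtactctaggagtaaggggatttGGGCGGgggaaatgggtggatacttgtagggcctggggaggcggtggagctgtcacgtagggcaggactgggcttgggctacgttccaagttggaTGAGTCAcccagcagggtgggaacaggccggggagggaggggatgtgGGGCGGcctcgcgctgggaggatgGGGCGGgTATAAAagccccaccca
S100a11: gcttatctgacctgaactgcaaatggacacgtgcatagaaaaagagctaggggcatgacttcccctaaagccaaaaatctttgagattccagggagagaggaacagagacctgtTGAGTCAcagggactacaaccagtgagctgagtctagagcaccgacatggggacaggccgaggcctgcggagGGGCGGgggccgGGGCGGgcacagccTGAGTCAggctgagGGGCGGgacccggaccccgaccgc
Anxa1: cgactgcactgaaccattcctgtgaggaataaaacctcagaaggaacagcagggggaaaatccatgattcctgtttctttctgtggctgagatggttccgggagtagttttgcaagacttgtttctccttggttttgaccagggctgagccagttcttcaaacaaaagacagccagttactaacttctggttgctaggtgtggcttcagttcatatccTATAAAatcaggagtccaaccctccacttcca
TGAGTCA was found in 2 of the 7 members with a RefSeq window, Anxa2 once and S100a11 at -136 and -38 counted from the start of RefSeq's window, and in 4.46% of all 32851 windows. GGGCGG was found in Anxa2, S100a11 and Lgals3 and in 32.7% of windows, and TATAAA in Anxa1, Anxa2 and S100a4 and in 12.4% of windows. In Anxa1 and S100a4, the members nearest absence, TATAAA began at -32 and -31. Both of these windows held 2 CpG dinucleotides, and that of S100a6 held 3, against a median of 6 over all windows. The windows of Lgals3 and Anxa5 held 13, that of S100a11 held 11 and that of Anxa2 held 9. A search for CACGTG (the E-box) found it in S100a11 alone and in 6.02% of windows, CCAAT was in Lgals3 and S100a6 and in 33.8% of windows, and TGACGT in none of the 7 and in 6.47% of windows. No RefSeq window was at hand for Lgals1, Anxa3 and S100a10. The matches describe letters in these windows, and binding was not measured.

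The other genes of the 3 families moved both ways. Of 29 further galectin, annexin and S100 genes, 26 were in the table and 16 were tested, of which 7 rose and 4 fell, or 43.8% and 25.0%, beside 29.7% and 25.0% of all genes. The median log2 fold change of these 16 was 0.71. Of the genes that rose, S100a1 was nearly without counts in controls and passed the filter through A485 alone, so it could only rise. Among galectins Lgals7, known from stratified epithelia, rose from 8.76 ± 4.57 to 54.6 ± 36.4 CPM (n = 4 per group, SD; edgeR adjusted p = 0.00175). Lgals8, a galectin with paired sugar-binding domains that senses damaged vesicles, dropped from 154 ± 11.3 to 36.4 ± 7.26 CPM (n = 4 per group, SD; edgeR adjusted p = 1.5e-05). Lgals4, an epithelial galectin, was lower, going from 23.2 ± 4.45 to 6.22 ± 4.91 CPM (n = 4 per group, SD; edgeR adjusted p = 0.00575). The log2 fold change of Lgals4 was -1.90, and -2.598 without A485 replicate 1, and the call was lost without A485 replicates 3 and 4 (-1.55, edgeR adjusted p = 0.078). The galectin genes thus split, with Lgals1, Lgals3 and Lgals7 higher and Lgals4 and Lgals8 lower. Lgals9 and Lgalsl had log2 fold changes of 0.72 ± 0.40 and -0.43 ± 0.26 (SE), with edgeR adjusted p of 0.15 and 0.18. Without A485 replicate 1 Lgals9 passed (0.97, edgeR adjusted p = 0.025), as it did without A485 replicates 1 and 2 (1.28, edgeR adjusted p = 0.00048), and without replicates 3 and 4 it had -0.26.

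**Figure D3:**
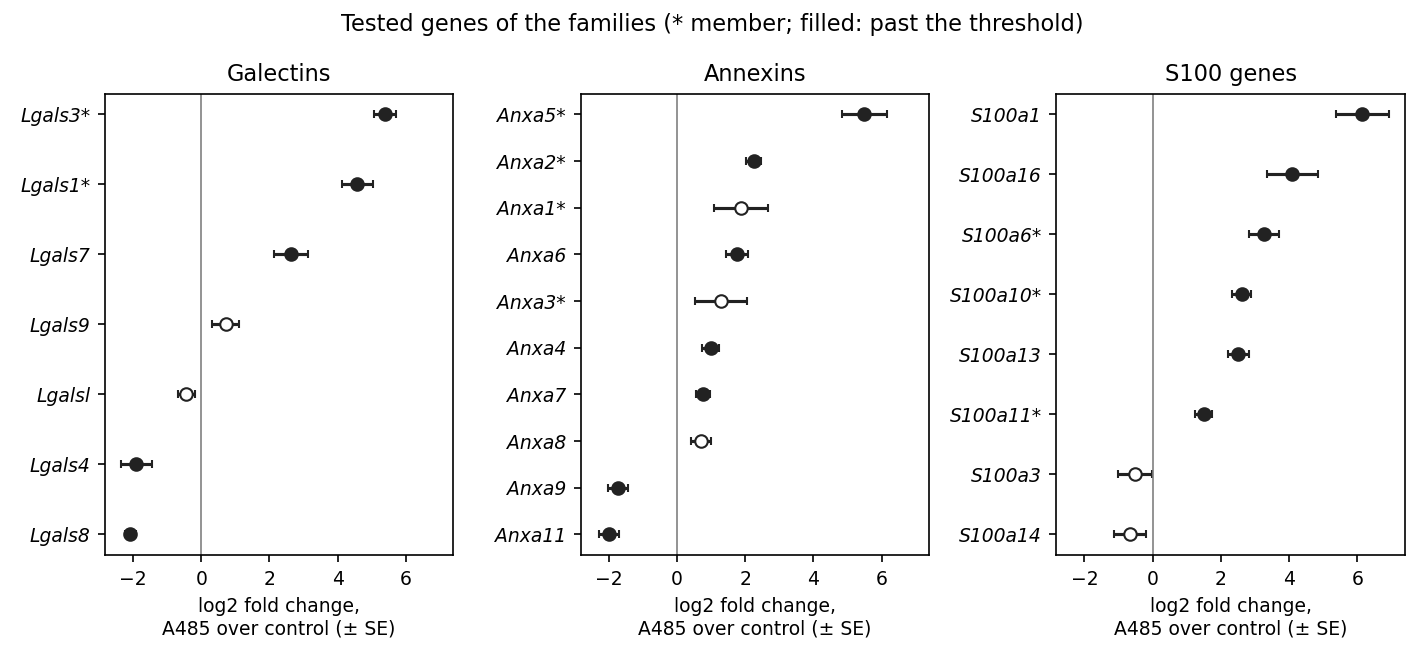
Log2 fold change of A485 over control with its standard error for all 25 tested galectin, annexin and S100 genes, where a star marks the described genes, filled points passed the threshold and open points did not. Each family has points on both sides of 0, and those of the S100 genes below 0 are open.

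Among the other annexins Anxa4, Anxa6 and Anxa7 rose, by log2 fold changes of 0.99 ± 0.25, 1.76 ± 0.32 and 0.76 ± 0.20 (SE; adjusted p in edgeR of 0.0071, 0.0012 and 0.0096). Anxa9 and Anxa11 both fell, by log2 fold changes of -1.73 ± 0.28 and -1.99 ± 0.30 (SE; adjusted p in edgeR of 0.00061 and 0.00035). Anxa9 went from 23.64 ± 3.01 to 7.12 ± 3.31 CPM and Anxa11 from 12.5 ± 1.35 to 3.13 ± 1.43 CPM (n = 4 per group, SD). Anxa7 went from 207.5 ± 3.19 to 352 ± 117 CPM (n = 4 per group, SD). The log2 fold change of Anxa8 was 0.70 ± 0.29 (SE; adjusted p in edgeR = 0.066). Anxa8 passed without control replicate 1 (0.92, edgeR adjusted p = 0.028), without A485 replicate 4 (0.84, edgeR adjusted p = 0.038) and without A485 replicates 3 and 4 (0.99). It also passed with upper-quartile scaling (0.80), total-count scaling (0.99) and the 5 CPM filter (0.83).

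Among the other S100 genes S100a1, known from heart and skeletal muscle, rose from 0.0916 ± 0.101 to 6.66 ± 3.89 CPM, S100a13 from 1.44 ± 0.302 to 8.26 ± 2.37 CPM and S100a16 from 0.779 ± 0.708 to 13.4 ± 7.46 CPM (n = 4 per group, SD). The log2 fold changes were 6.14 ± 0.78, 2.51 ± 0.30 and 4.09 ± 0.74 (SE; adjusted p in edgeR of 0.00016, 0.00011 and 0.0014). Without control replicate 4 that of S100a1 was 7.08, and that of S100a16 was 4.90 without control replicate 1 and 3.44 without A485 replicates 3 and 4. S100a1 had 8 counts over the control group and 744 in A485. It passed the filter on low counts through A485 alone, so its test could show only a rise. S100a3 and S100a14 were not called, with log2 fold changes of -0.52 ± 0.50 and -0.66 ± 0.47 (SE; adjusted p in edgeR of 0.40 and 0.26). S100a3 had 35.4 CPM in control replicate 1 and 6.77 to 13.9 CPM in the other controls, and without that library its log2 fold change was 0.23. S100a14 passed without A485 replicate 4 (-1.33, edgeR adjusted p = 0.012) or replicates 3 and 4 (-1.03, edgeR adjusted p = 0.016). S100a8 and S100a9, the pair known from neutrophils, had at most 0.0928 CPM in any library.

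The genes S100a4, S100a6, S100a10 and S100a11 lie on chromosome 3 with other S100 genes. From S100a1 to S100a9 a stretch of 185 kb (GRCm38.p6, 90511034 to 90695721) held 11 genes of the table, all S100 genes, of which 6 were tested, 4 called higher and none lower, beside 29.7% and 25.0% of all tested genes. Among the 4, S100a6 was chosen on this contrast. S100a1, with 8 counts over the control group, passed the filter on low counts through A485 alone and could only rise. Nothing is therefore read from the count of this stretch. Adjacent genes there differed, since S100a3 was not called, S100a4 was near absence and S100a6 was called higher. S100a10 and S100a11 lie 28.7 kb apart with no other gene of the table between them, and S100a11 starts 2907 kb beyond the start of S100a6. The nearest tested genes beside the other members did not share one direction. Nol12, 4.47 kb from Lgals1, fell by a log2 fold change of -1.55 ± 0.20 (SE; adjusted p in edgeR = 0.00016). Dlgap5, 1.61 kb from Lgals3, rose by 0.88 ± 0.23 on the log2 scale (SE; adjusted p in edgeR = 0.0082), and Exosc9, 76.7 kb from Anxa5, fell with -1.17 ± 0.15 (SE; adjusted p in edgeR = 0.00018). The gene nearest to Anxa5, 1810062G17Rik at 0.05 kb, was not tested, with means of 0.0223 CPM in controls and 0.539 CPM in A485. Rora, 65.4 kb from Anxa2, rose by 1.78 ± 0.50 on the log2 scale (SE; adjusted p in edgeR = 0.012), or 1.17 without A485 replicate 3, where it stood at 6.26 CPM, and was not called without A485 replicates 3 and 4 (1.18, edgeR adjusted p = 0.060). Pdxp, Mapk1ip1l and Ice2, next to Lgals1, Lgals3 and Anxa2, were not called (0.41, -0.28 and 0.08).

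**Figure D4:**
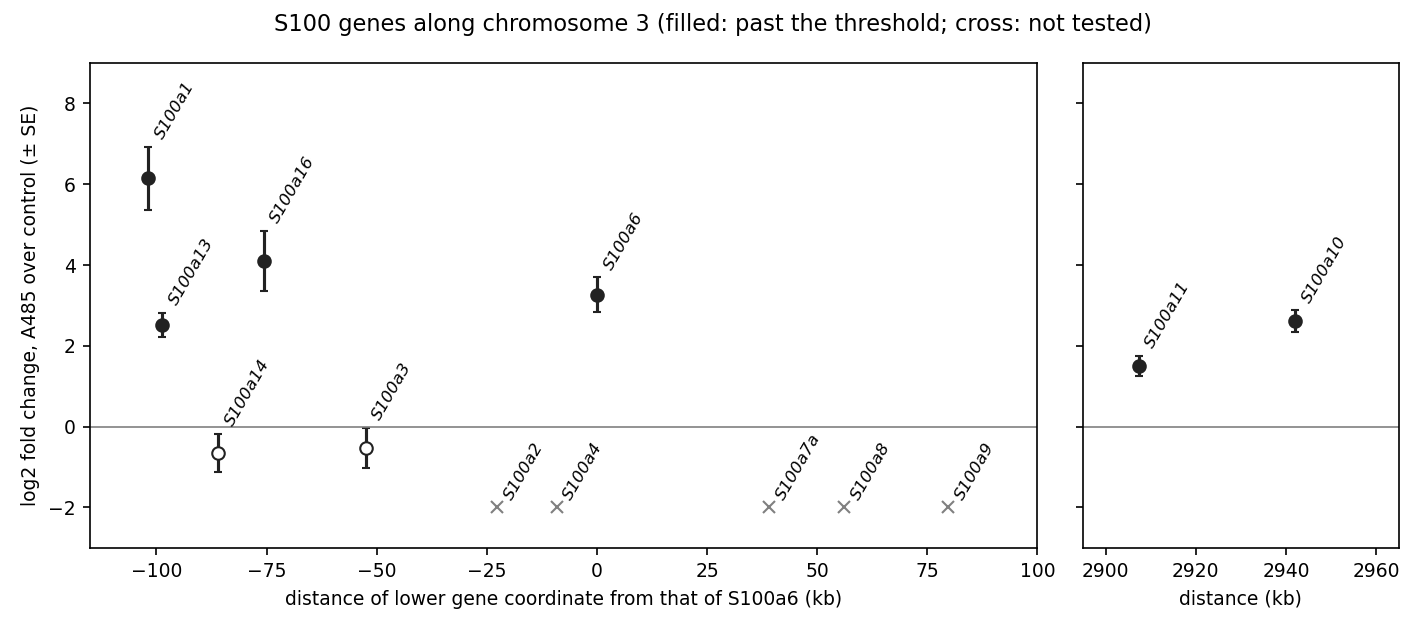
Log2 fold change with standard error of the S100 genes of chromosome 3 against the distance of each gene's lower coordinate from that of S100a6 in kb, with filled points past the threshold, open points tested and not called, and crosses at the bottom for genes not tested. Called and uncalled genes are mixed within the stretch left of S100a6, and S100a11 and S100a10 stand together at the right.

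Of 24 binding partners, receptors and functionally linked genes of the members (the partner list) 14 were tested, with 9 higher and 4 lower, or 64.3% and 28.6%, beside 29.7% and 25.0% of all genes. This list and those below were chosen with earlier results of these data known. Their shares are therefore given as a description only. Ahnak, encoding a large scaffold that binds S100A10 and annexin A2, rose from 13.2 ± 1.11 to 62.1 ± 23.2 CPM (n = 4 per group, SD; edgeR adjusted p = 6.3e-05). Plaur, encoding the urokinase receptor, rose from 32.5 ± 8.26 to 219.5 ± 87.9 CPM (n = 4 per group, SD; edgeR adjusted p = 9.1e-05), with a log2 fold change of 2.76 that was 2.15 without A485 replicates 3 and 4. The plasminogen activator genes Plat and Plau, whose products act on plasminogen held at the surface by S100A10, rose at low levels, from 1.94 ± 0.801 to 5.99 ± 3.68 CPM and from 0.292 ± 0.348 to 2.12 ± 2.28 CPM (n = 4 per group, SD; edgeR adjusted p of 0.010 and 0.038). The log2 fold change of Plat was 1.62, and without A485 replicates 3 and 4 it was 1.03 and not called (edgeR adjusted p = 0.053). That of Plau was 2.83, and it missed the threshold without control replicates 1, 2 or 4 (each alone) or A485 replicate 3 (2.40, 2.50, 2.94 and 1.72, edgeR adjusted p of 0.068 to 0.15) and without A485 replicates 3 and 4 (1.87). Without control replicate 3 it was 3.85. Plgrkt, encoding a plasminogen receptor, rose by 0.88 ± 0.23 on the log2 scale (SE; adjusted p in edgeR = 0.0086), and this call was lost without A485 replicates 3 and 4 (0.69, edgeR adjusted p = 0.051). Lamp2, encoding a heavily glycosylated lysosomal membrane protein, rose from 104 ± 12.4 to 221 ± 30.1 CPM (n = 4 per group, SD; edgeR adjusted p = 0.00016).

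Sugt1, encoding a co-chaperone that S100A6 binds, was reduced from 1444 ± 16.5 to 351 ± 96.9 CPM (n = 4 per group, SD; edgeR adjusted p = 2.9e-05). Cacybp, encoding the calcyclin-binding protein, was lower at -0.39 ± 0.15 on the log2 scale (SE; adjusted p in edgeR = 0.045), with overlapping groups, while S100a6 was higher. The call of Cacybp was lost without any 1 control replicate or A485 replicate 1, 2 or 3 (log2 fold changes of -0.44 to -0.31, edgeR adjusted p of 0.058 to 0.11), without A485 replicates 1 and 2 (-0.24, edgeR adjusted p = 0.17), under upper-quartile (-0.30) and total-count (-0.10) scaling, with the 5 CPM filter (-0.26) and with the replicate block (-0.40). Myh9, the nonmuscle myosin heavy chain gene whose product S100A4 binds, rose by 0.83 ± 0.25 on the log2 scale (SE; adjusted p in edgeR = 0.018). That call was lost without control replicate 3 (0.75, edgeR adjusted p = 0.051), control replicate 4 (0.77, edgeR adjusted p = 0.053) or A485 replicates 3 and 4 (0.30). Myh10, another nonmuscle myosin heavy chain gene of the list, fell from 30.8 ± 4.32 to 13.6 ± 1.08 CPM (n = 4 per group, SD; edgeR adjusted p = 0.00019). Lgals3bp, encoding a secreted galectin 3 ligand, and Cd44 were at 0.315 and 0.111 CPM or less on average and were not tested. Mgat5, whose product builds the branched glycans that galectin 3 prefers, was at -0.14 ± 0.37 on the log2 scale (SE; adjusted p in edgeR = 0.78), a value whose sign changed with total-count scaling (0.17) and without A485 replicate 1 (0.058).

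The list of glycan genes covered N-glycan branching, chain extension, O-glycan core synthesis and the addition of sialic acid. Of its 18 tested genes 7 rose and 3 fell, or 38.9% and 16.7%, beside 29.7% and 25.0% of all genes. The 7 include C1galt1, the core 1 O-glycan synthase gene, and C1galt1c1, which encodes its chaperone and no enzyme. Mgat4b, Gcnt2, Mgat1 and B4galt4 rose, by log2 fold changes of 3.04 ± 0.34, 2.42 ± 0.34, 2.42 ± 0.36 and 4.22 ± 0.65 (SE; adjusted p in edgeR of 7.3e-05 to 0.00044). The 3 that fell were Mgat4a, B3gnt8 and St3gal6, with log2 fold changes of -1.02 ± 0.29, -1.92 ± 0.54 and -1.23 ± 0.24 (SE; adjusted p in edgeR of 0.013, 0.012 and 0.0015). In the plasma membrane repair list 10 of 22 rose and 6 fell, or 45.5% and 27.3%, beside the same 29.7% and 25.0%, but 2 fell under total-count scaling. Myof, encoding myoferlin, a relative of dysferlin, had 1 count in the controls, in replicate 3, and 613 in A485. Scaled by library size the ratio was 512, with an exact 95% interval of 91.6 to 20274 for counting error only, and without control replicate 3, at a floor of 3 counts over the remaining controls, A485 was at least 125-fold higher. Pdcd6ip, encoding the ESCRT adaptor ALIX, rose from 31.6 ± 1.79 to 85.2 ± 19.9 CPM (n = 4 per group, SD; edgeR adjusted p = 0.00013). Chmp4c, an ESCRT-III subunit gene, fell from 32.3 ± 4.21 to 1.56 ± 0.736 CPM, and Smpd1, the acid sphingomyelinase gene, from 313 ± 53.5 to 47.8 ± 9.74 CPM (n = 4 per group, SD; edgeR adjusted p of 1.4e-05 and 1.0e-05). Of 31 tested EF-hand genes outside the S100 family 17 rose and 7 fell, or 54.8% and 22.6%, beside 29.7% and 25.0% of all genes. Calml4, Cib2, Cetn2 and Nucb1 rose, by log2 fold changes of 8.79 ± 0.77, 3.88 ± 0.52, 1.51 ± 0.21 and 1.83 ± 0.25 (SE; adjusted p in edgeR of 3.2e-05 to 0.00024). Calml4 had 8 counts over the control group, all in replicate 1, so that without that library the controls are at 0 and A485 is at least 947-fold higher (floor of 3 counts over the remaining controls). Cib2 had 3.00 without A485 replicates 3 and 4. Myof and Calml4 passed the filter on low counts through A485 alone, so only a rise could be seen for them. The median log2 fold change was 0.93 for the tested partners, 0.46 for membrane repair, 0.63 for glycan synthesis genes and 0.59 for EF-hand genes, beside 0.09 for all genes.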

How the data were processed

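The authors deposited 1 table for the 8 libraries. Per the file headers, every library has estimated counts, FPKM, TPM and normalized counts (a scaled signal), and the authors added a log2 fold change with DESeq2 p-values and q-values. Tools listed by the submitters' processing notes are RSEM 1.2.28, HISAT2 2.2.1 and DESeq2 1.40.2, on GRCm38.p6. No source here states the strandedness. The deposited estimated counts (18.2% not whole) were rounded. TPM served for levels between genes; FPKM, the normalized counts and the p-values and q-values of the authors entered no test. In the authors' deposited table the log2 fold changes of the 9 tested members lay within 0.0384 of those given here.

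Tests used edgeR 4.0.16 in R 4.3.3 (filterByExpr, TMM, robust quasi-likelihood fit, no term besides group). P-values of the 12936 genes were adjusted by Benjamini-Hochberg and called under 0.05. Standard errors were derived as log2 fold change divided by root F. The code was tested on simulated data. Alternatives were DESeq2 1.42.0, limma-voom (limma 3.58.1), other factors, filters and dispersions, a replicate block and left-out libraries. Similar transcripts were sought with BLAST 2.17.0 in GENCODE M21 (at least 90% identity over 200 bases).

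The members and lists were chosen with earlier results of these data known. Named were all members, every called family gene, from each other list the 4 called genes at most with the lowest p whose groups did not overlap, and 10 fixed genes of the partner list. The uncalled family genes, the markers, the nearest genes on the chromosome and the genes between the S100 groups were named after their values were seen. The same holds for C1galt1, C1galt1c1, Mgat4a, B3gnt8, St3gal6 and Myh10. Protein sequences were not used here. No pair of libraries agreed within sampling noise.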

Additional observations from a re-analysis of the deposited data

Results flagged for a closer look

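In groups of 4 libraries, a library counted as standing apart when its gap to the nearest other library divided by the group's range exceeded Dixon's 95% critical value. For independent, normally distributed values chance gives about 1 in 20, and 10 of the 123 gene and group combinations examined were found. The combinations share the same 8 libraries, and some of the genes were named after their values were seen. Nothing is therefore read from the number found. Of the 10 members, Anxa5 had 3.99 CPM in control replicate 4 against 2.39 to 2.58 CPM in the other controls, and S100a6 had 37.3 CPM in A485 replicate 1 against 99.1 to 111 CPM in the other A485 libraries. Anxa9 had 12.0 CPM in A485 replicate 4 against 4.93 to 5.78 CPM. Lamp2 had 123 CPM in control replicate 1 against 97.1 to 98.6 CPM. Both plasminogen activator genes stood out in A485 replicate 3, with 11.5 CPM of Plat against 3.80 to 4.51 CPM and 5.51 CPM of Plau against 0.776 to 1.39 CPM. Dlgap5 had 66.8 CPM in A485 replicate 4 against 33.9 to 37.6 CPM, and Rora 6.26 CPM in A485 replicate 3 against 1.96 to 2.09 CPM. Of the genes between the S100 groups, Crct1 had 8.30 CPM in A485 replicate 3 against 0.534 to 0.591 CPM, and Gm4858 had 4.27 CPM in control replicate 1 against 0.181 to 0.583 CPM.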

How the results depend on the processing

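Over 19 alternatives, as a description of genes chosen on this same contrast and no support for it, log2 fold changes were 4.22 to 4.88 for Lgals1, 5.09 to 5.72 for Lgals3, 1.91 to 2.54 for Anxa2, 4.31 to 6.12 for Anxa5, 2.94 to 3.68 for S100a6, 2.18 to 2.91 for S100a10 and 0.96 to 1.87 for S100a11. Anxa1 was called in 6 of 18 alternatives that tested it, Anxa3 in 2 of 19 and S100a4 in 0 of 8. Without A485 replicates 3 and 4 Anxa3 turned to -0.79 and Lgals9 to -0.26, and 5 partners rose instead of 9. Leaving out 1 library moved S100a3 between -0.81 and 0.23 (without control replicate 1) and Mgat5 between -0.29 and 0.058 (without A485 replicate 1). Mgat5 turned to 0.17 under total-count scaling and to 0.16 without A485 replicates 1 and 2, where 1 glycan synthesis gene fell instead of 3. With a filter of 5 CPM, which tests fewer genes, 2526 genes were higher instead of 3839, 2 partners fell instead of 4 and 4 glycan synthesis genes rose instead of 7. Under total-count scaling the median over all genes went from 0.09 to 0.37 (log2) and the share of calls that were higher from 54.2% to 68.2%, and 2 membrane repair genes fell instead of 6. With the replicate number as a block 8 members were called (Anxa1 added); same-numbered libraries deviated together with correlations of 0.012 to 0.136, so the numbers were not taken to pair them. Beyond those named, the cause was not tested. Depth limits Anxa1 and S100a4, with 39 and 17 counts over the control group.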

Other observations

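Between the S100 gene groups on chromosome 3 lie 20 genes of the table, mostly genes of the cornified envelope of skin. Of these 6 were tested, and 5 were called higher in A485 and 0 lower in edgeR's fit, beside 29.7% and 25.0% of all tested genes. At an unadjusted p under 0.05 also 0 were lower, since the sixth, Tchh, had a log2 fold change of 0.88 ± 0.50 (SE). The region and its genes were chosen after their values were seen. Sprr2e and Gm4858 were highest in A485 replicates 1 and 2. Sprr2e had 11.6, 18.7, 2.25 and 2.11 CPM in A485 replicates 1 to 4 and at most 1.59 CPM in controls (log2 fold change 3.43, edgeR adjusted p = 0.0097, and 2.73 without A485 replicate 2), and was not called without replicates 1 and 2 (1.43) or with limma-voom (3.29). Gm4858 had 60.3, 33.1, 6.26 and 7.17 CPM in A485 and at most 4.27 CPM in controls (log2 fold change 4.30, edgeR adjusted p = 0.013, 6.10 without control replicate 1 and 3.51 without A485 replicate 1), and was not called without replicates 1 and 2 (2.29). Crct1 had 2 counts in the control group and 289 in A485, most of them in replicate 3. Sprr2a1 and Sprr2a2 have identical values in all 8 libraries and cannot be told apart, so their calls, both among the 5, rest on the same values. Their A485 values of 0, 12.2, 2.18 and 0.924 CPM overlapped the controls.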
